A study of Homo sapiens with 12 samples.

Results

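Transforming growth factor beta (TGF-beta) signalling was followed through 10 genes, taken by name from the deposited gene-by-cell tables, which list 33514 gene symbols. They are the ligands TGFB1, TGFB2 and TGFB3, the activin subunit gene INHBA, the latency protein gene LTBP1, the receptors TGFBR1 and TGFBR2, the transducer SMAD3, the inhibitor SMAD7 and the secreted target TGFBI. All 10 were found in every table and all 10 passed the filter on low counts, although TGFB3 and LTBP1 were close to undetected in untreated SCC1 and passed through other groups. The data were single-cell RNA sequencing (scRNA-seq, 3′ droplet libraries) of 3 established lines of squamous cell carcinoma of the head and neck, named SCC1, SCC6 and SCC25. Each was given 100 nM cetuximab, a therapeutic antibody against EGFR (the epidermal growth factor receptor), every day for 5 days, or PBS (phosphate-buffered saline) alone as the untreated group. There were 2 replicates per group, which makes 12 samples in 6 groups. The study states that samples were sequenced in duplicate and the labels name no separate cultures, so the p-values measure the spread between these libraries, which may be technical.

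The TGF-beta ligands are secreted bound to their own propeptide and, in most cells, to a latent TGF-beta binding protein such as LTBP1, and are held inactive in the matrix until integrins or proteases release them. The freed dimer brings together the type II receptor TGFBR2 and the type I receptor TGFBR1, which phosphorylates SMAD2 and SMAD3, and these enter the nucleus with SMAD4 and act on target genes. Activin A, the dimer of INHBA products, uses its own receptors but the same SMAD proteins, and SMAD7 is induced by the pathway and blocks it at the receptor. In squamous epithelium the pathway is known for arresting growth and, in carcinoma, for its links to matrix production and epithelial-to-mesenchymal transition (EMT).

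TGFB2 and SMAD7 were the members that passed the test under cetuximab without a replicate block, so the promoters of these genes are shown. Each window runs from 250 bases before to 50 bases after the first-listed RefSeq start (GRCh38.p14, the table's build), read 5′ to 3′ on the gene's strand, and capitals mark CAGAC, a core of the DNA element that SMAD3 and SMAD4 are known to bind. The TGFB2 window is chr1:218345086-218345385 on the plus strand and the SMAD7 window is chr18:48950916-48951215 on the minus strand.
TGFB2: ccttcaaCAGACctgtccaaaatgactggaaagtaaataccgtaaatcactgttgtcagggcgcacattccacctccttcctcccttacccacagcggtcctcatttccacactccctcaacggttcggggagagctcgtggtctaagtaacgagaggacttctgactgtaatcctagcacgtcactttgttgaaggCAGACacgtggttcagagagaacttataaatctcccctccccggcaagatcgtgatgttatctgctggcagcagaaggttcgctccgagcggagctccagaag
SMAD7: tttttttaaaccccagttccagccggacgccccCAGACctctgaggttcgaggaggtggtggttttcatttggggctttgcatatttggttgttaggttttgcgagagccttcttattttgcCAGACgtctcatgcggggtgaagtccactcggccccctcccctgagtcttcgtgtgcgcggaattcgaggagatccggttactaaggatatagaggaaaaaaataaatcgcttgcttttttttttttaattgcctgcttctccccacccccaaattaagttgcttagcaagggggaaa
In the TGFB2 window the motif began at positions -243 and -53 relative to the start, and in the SMAD7 window at -217 and -128, in each case in the forward direction. The motif was searched on both strands, and no other motif was searched. It stood in 45.0% of the 27305 gene promoters of that table and in 7 of the 10 member promoters, so its presence here is a description of the sequence only. By RefSeq on the same build, the TGFB2 gene spans chr1:218345336-218444619, INHBA chr7:41685114-41705406, SMAD7 chr18:48919853-48950965 and TGFBI chr5:136028988-136063818.

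The 12 samples held 961 to 2854 cells and from 57057402 to 112170073 unique molecular identifiers (UMIs, each a counted RNA molecule), with a median of 24078.5 to 54864 UMIs per cell. Samples shared from 1 to 13 cell barcodes between groups and from 3 to 10 within a group. Of the squamous markers KRT5, KRT14, KRT17, TP63 and CDH1, none was at 0 in any group, and their summed level ran from 527 to 12515.5 CPM (UMIs scaled to library size), lowest in untreated SCC6, where KRT14 averaged 0.678 CPM and KRT5 averaged 1.39 CPM. The squamous sum was 4780 and 5312 CPM with PBS and 9310 and 8854 CPM with cetuximab in SCC1. It was 982 and 527 CPM against 2025 and 2490 CPM for SCC6, and 5382 and 10164 CPM against 6944 and 12516 CPM for SCC25. The leukocyte and endothelial lists stayed at or under 0.660 CPM in every sample. The 5 fibroblast markers summed to 4.42 to 4.82 CPM in untreated and 11.7 to 13.9 CPM in treated SCC1, to 0.107 to 0.370 and 2.01 to 2.15 CPM in SCC6, and to 11.5 to 33.9 and 21.6 to 63.0 CPM in SCC25, led by COL1A2 in SCC1, PDGFRB in treated SCC6 and LUM in SCC25. Within each pair of the same replicate number the treated sample had the higher sum of squamous and of fibroblast markers, as it had the higher TGFB2, INHBA, SMAD7 and TGFBR2 level. KRT17 rose in every pair, but not every squamous marker did. KRT5 and TP63 fell in both SCC1 pairs (log2 change -0.04 and -0.21, then -0.29 and -0.13). KRT14 fell in both SCC25 pairs (-0.28 and -0.49). Of the fibroblast list, 1 marker of 5, PDGFRA, was at 0 in both samples of untreated SCC1 and untreated SCC6, and none was in the other groups. PDGFRA had 0.0153 and 0.0571 CPM in treated SCC1 and 0.0902 and 0.0111 CPM in treated SCC6, and the part of these markers in the results was not tested.

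For every gene, UMIs were summed per sample and tested with edgeR's quasi-likelihood test over the 17897 genes that passed the filter, with the Benjamini-Hochberg false discovery rate (FDR) taken over all of them and 0.05 as the threshold. Replicates with the same number deviated together within each line, and every cetuximab comparison was therefore also fitted with the replicate number as a block, which is named wherever it changed a call. Errors of fold changes are standard errors (SE), CPM values are given as replicate 1 then replicate 2, and levels are compared between samples of a gene and not between genes.

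**Figure D1:**
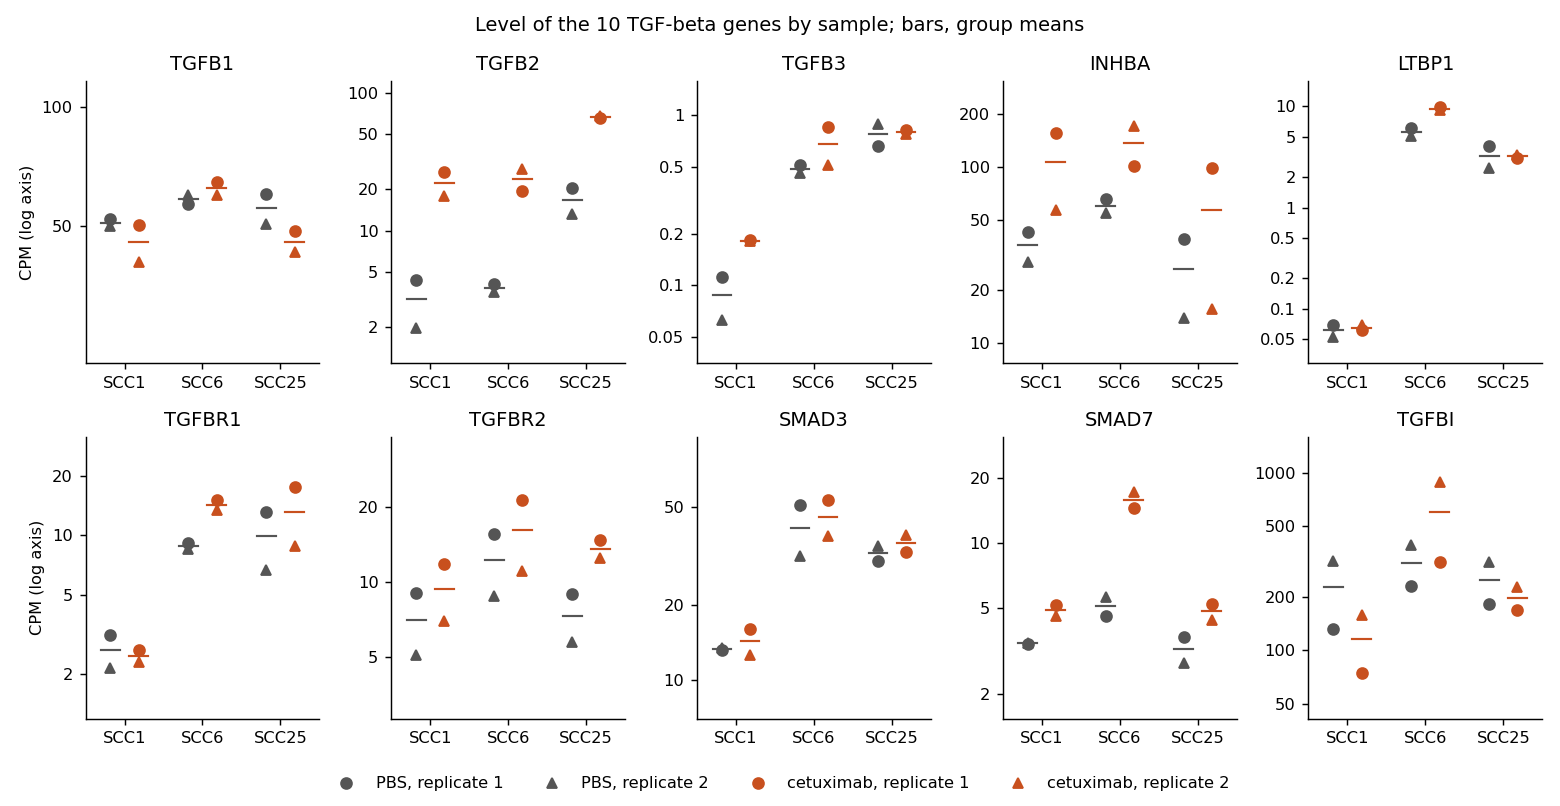
Level of each of the 10 genes in every sample, in CPM on a log axis, with PBS in grey, cetuximab in orange, circles for replicate 1, triangles for replicate 2 and bars for the group means (n = 2). TGFB2 is higher with cetuximab in both replicates of all 3 lines, whereas TGFBI falls in SCC1 pairs and rises in SCC6 pairs.

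TGFB2 was the ligand gene that passed the test, and in these summed samples more expressing cells and more RNA per cell cannot be told apart. In SCC1 its level was 4.36 and 1.97 CPM with PBS and 26.4 and 17.7 CPM with cetuximab. SCC6 had 4.12 and 3.57 CPM with PBS and 19.3 and 27.8 CPM with cetuximab. SCC25 had 20.3 and 13.2 CPM untreated and 65.5 and 67.5 CPM treated. In each line both treated samples lay above both untreated samples, and untreated SCC25 lay above the untreated samples of the other lines. Across the 3 lines the increase was 2.47 ± 0.23 on the log2 scale, or 5.53-fold, with an edgeR FDR of 0.000903. Within SCC6 it was 2.61 ± 0.39 (edgeR FDR 0.00926), a call that was lost without SCC6 PBS replicate 1 (FDR 0.104), when the remaining PBS sample is assumed to vary like the other groups. In SCC1 the change of 2.80 ± 0.40 did not pass the edgeR test (FDR 0.0661), nor did that of 1.99 ± 0.38 in SCC25 (FDR 0.370). With the replicate block both passed in edgeR, at 2.88 ± 0.25 in SCC1 (FDR 0.00250) and 2.02 ± 0.23 in SCC25 (FDR 0.0132). The changes in the 3 lines were not shown to differ (edgeR interaction FDR 0.975 without and 0.320 with the block). Untreated SCC25 had a higher TGFB2 level than SCC1 by 2.41 ± 0.39 (edgeR FDR 0.000904) and than SCC6 by 2.12 ± 0.39 (edgeR FDR 0.00174).

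TGFB1, the most widely expressed isoform in adult tissue, did not move in the same way. Its levels were 52.1 and 49.9 CPM with PBS and 50.4 and 40.7 CPM with cetuximab in SCC1. They were 57.0 and 60.0 CPM against 64.5 and 60.0 CPM in SCC6, and 60.2 and 50.7 CPM against 48.5 and 42.9 CPM in SCC25. All 12 samples therefore lay within a narrow band, and the change across lines was -0.12 ± 0.11 (edgeR FDR 0.586). No pair of untreated lines differed in TGFB1 by the test (edgeR FDR 0.439 to 0.776). TGFB3, the third isoform, was close to the detection limit. It had 8 and 6 UMIs in the untreated and 12 and 16 UMIs in the treated SCC1 samples, and between 0.457 and 0.884 CPM in all samples of the other lines. No cetuximab change of TGFB3 passed, and the difference between untreated SCC1 and the other lines is given by these levels only, since the gene passed the filter through groups in which it was higher.

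INHBA, which encodes the subunit of activin A, was higher in every treated sample than in its untreated pair, by amounts that differed between replicates. SCC1 had 42.7 and 28.8 CPM with PBS and 155 and 56.9 CPM with cetuximab. SCC6 had 65.7 and 54.4 CPM against 101 and 171 CPM. SCC25 had 38.7 and 13.8 CPM against 98.0 and 15.6 CPM, so the second SCC25 pair hardly differed and the groups overlapped there. The change across lines was 1.29 ± 0.41 (edgeR FDR 0.0985), and with the block it was 1.11 ± 0.21 and passed (edgeR FDR 0.0170). Without the block, the INHBA change across lines ran from 0.94 to 1.53 over the 12 fits that left out 1 sample. Within lines INHBA passed with the block in SCC6 at 1.14 ± 0.34 (edgeR FDR 0.0461), and missed the threshold in SCC1 at 1.42 ± 0.34 (FDR 0.0537) and in SCC25 at 0.77 ± 0.34 (FDR 0.332). The untreated lines did not differ by the test (edgeR FDR 0.245 to 0.672).

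LTBP1, which tethers latent ligand to the matrix, separated the lines. It had 4 to 6 UMIs in each SCC1 sample, against 5.16 to 6.15 CPM in untreated SCC6 and 2.46 to 4.04 CPM in untreated SCC25. These levels are a description, since LTBP1 passed the filter on low counts through SCC6 and SCC25 alone, and a level of a few UMIs leaves the size of the difference imprecise. SCC25 was lower than SCC6 by -0.80 ± 0.26 (edgeR FDR 0.0338), which was lost without SCC6 PBS replicate 1 or SCC25 PBS replicate 2. Under cetuximab SCC6 had 9.90 and 9.15 CPM, above both untreated samples. The SCC6 change was 0.75 ± 0.26 (edgeR FDR 0.143) and passed with the block at 0.76 ± 0.22 (edgeR FDR 0.0418). SCC25 had 3.08 and 3.34 CPM with cetuximab and its groups overlapped.

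The receptors were measured at few UMIs per cell. TGFBR1, the type I kinase, had 3.16 and 2.14 CPM in untreated and 2.64 and 2.30 CPM in treated SCC1. SCC6 had 9.19 and 8.58 CPM against 15.0 and 13.5 CPM, and SCC25 had 13.1 and 6.67 CPM against 17.5 and 8.82 CPM. Both treated SCC6 samples were above both untreated ones, whereas SCC1 and SCC25 overlapped. The SCC6 change of 0.68 ± 0.38 did not pass (edgeR FDR 0.349) and passed with the block (0.68 ± 0.14, edgeR FDR 0.0142). Untreated SCC1 was below SCC6, which was higher by 1.75 ± 0.39 (edgeR FDR 0.00516), and below SCC25, higher by 1.90 ± 0.39 (edgeR FDR 0.00340). The first of these was not called without SCC1 PBS replicate 2 (edgeR FDR 0.0530).

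TGFBR2, the type II receptor that binds ligand first, was higher in replicate 1 than in replicate 2 in all 6 groups. It had 9.03 and 5.10 CPM in untreated and 11.8 and 6.95 CPM in treated SCC1. SCC6 had 15.6 and 8.80 CPM against 21.2 and 11.1 CPM, and SCC25 had 8.91 and 5.73 CPM against 14.7 and 12.4 CPM. Within each pair the treated sample was the higher one, by 0.33 to 1.11 on the log2 scale. The groups did not overlap in SCC25 alone, and no comparison passed without the block (edgeR FDR 0.194 across lines). With it, SCC25 rose by 0.92 ± 0.14 (edgeR FDR 0.0345) and the change across lines was 0.58 ± 0.12 (edgeR FDR 0.0199).

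SMAD3, the transducer, differed between lines, and its cetuximab changes did not pass. It had 13.3 and 13.5 CPM in untreated SCC1, 50.6 and 31.7 CPM in SCC6 and 30.2 and 34.6 CPM in SCC25. With cetuximab it had 16.1 and 12.6, 53.2 and 38.0, and 32.7 and 38.4 CPM in the same order, overlapping the untreated samples in each line. Untreated SCC6 was higher than SCC1 by 1.62 ± 0.27 (edgeR FDR 0.00100) and SCC25 by 1.28 ± 0.27 (edgeR FDR 0.00390). The cetuximab change across lines was 0.13 ± 0.14 (edgeR FDR 0.656, and 0.287 with the block).

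SMAD7, the feedback inhibitor, rose in SCC6. Its levels there were 4.62 and 5.63 CPM with PBS and 14.5 and 17.3 CPM with cetuximab, a change of 1.63 ± 0.23, or 3.10-fold (edgeR FDR 0.00851). SCC1 had 3.42 and 3.46 CPM against 5.18 and 4.60 CPM, and SCC25 had 3.69 and 2.78 CPM against 5.25 and 4.43 CPM. Treated samples were above untreated samples in all 3 lines, with the widest gap in SCC6. The smaller changes, 0.51 ± 0.23 in SCC1 and 0.58 ± 0.23 in SCC25, did not pass (edgeR FDR 0.570 and 0.784, or 0.104 and 0.127 with the block). The SCC6 call was lost without SCC6 PBS replicate 1 (edgeR FDR 0.101). Across lines the change was 0.91 ± 0.19 (edgeR FDR 0.0281), and it held in 6 of 12 fits that left out 1 sample, with FDR values from 0.0296 to 0.0833. It was lost without SCC1 PBS replicate 2, SCC1 cetuximab replicate 1 or any SCC6 sample. The SCC6 change exceeded that of SCC1 by 1.13 ± 0.32 without the block (edgeR FDR 0.336) and by 1.13 ± 0.21 with it (edgeR FDR 0.0411), a call made for 1.67% of all genes in that comparison. The interaction over the 3 lines did not pass for SMAD7 (edgeR FDR 0.477 without and 0.0593 with the block). Untreated SCC25 was lower than SCC6 in SMAD7 by -0.67 ± 0.23 (edgeR FDR 0.0392), which was kept in 6 of 12 fits that left out 1 sample.

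TGFBI, an extracellular matrix protein named for its induction by TGF-beta, moved in opposite directions in SCC1 and SCC6. It had 132 and 320 CPM in untreated and 74.2 and 157 CPM in treated SCC1. SCC6 had 231 and 393 CPM against 316 and 887 CPM, and SCC25 had 182 and 314 CPM against 169 and 227 CPM. Replicate 2 was above replicate 1 in all 6 groups, and the treated and untreated ranges overlapped in every line. Within pairs the log2 change was -0.83 and -1.03 for SCC1. It was 0.45 and 1.18 for SCC6 and -0.10 and -0.47 for SCC25. Without the block no change passed, at -0.97 ± 0.58 in SCC1 (edgeR FDR 0.726) and 0.95 ± 0.58 in SCC6 (FDR 0.398). With the block SCC1 fell by 0.93 ± 0.18 (edgeR FDR 0.0297) and SCC6 rose by 0.81 ± 0.18 (edgeR FDR 0.0180), while SCC25 had -0.29 ± 0.18 (FDR 0.489). The interaction of line and treatment passed for TGFBI with the block (edgeR FDR 0.0383) and not without it (FDR 0.777).

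**Figure D2:**
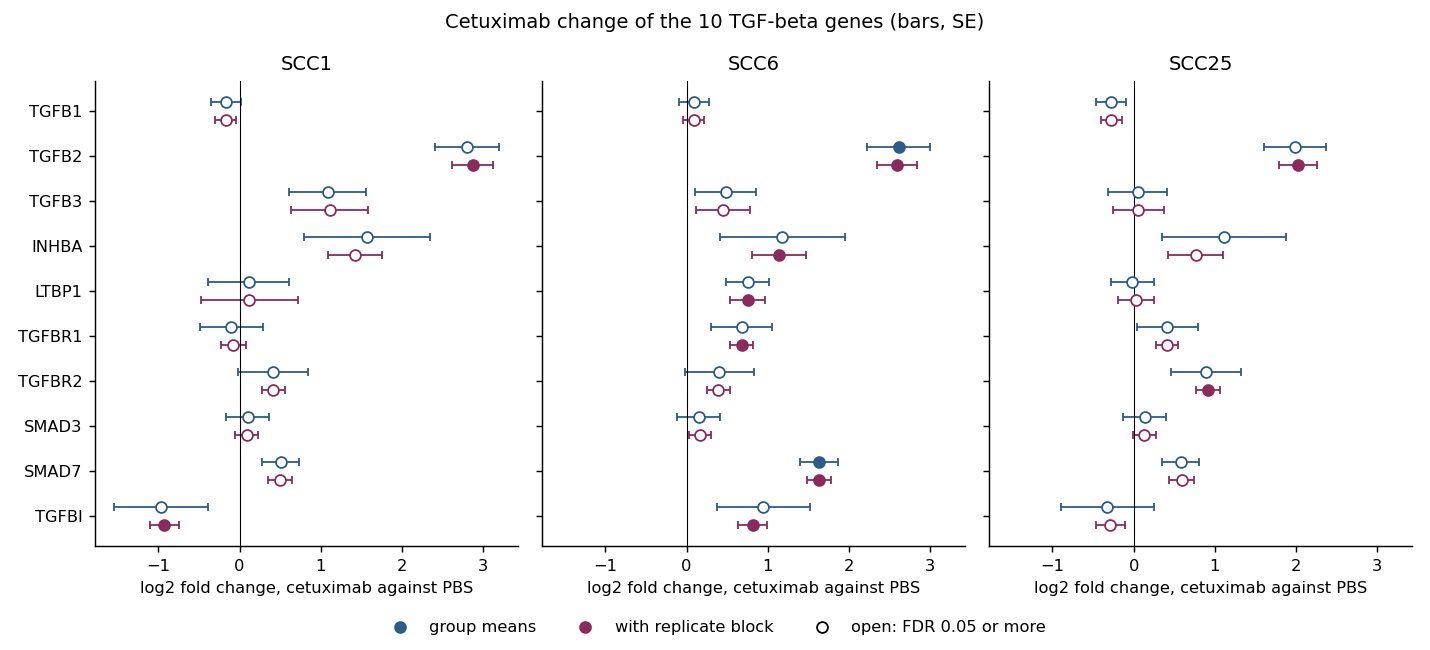
Cetuximab change of each gene within each line, as log2 fold change with SE, from the fit of group means (blue) and the fit with the replicate block (purple), filled where the FDR is under 0.05. The estimates are close in both fits while the bars are shorter with the block for most genes, and TGFB2 is filled in all 3 lines with the block.

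By count, 2 of the 10 genes passed across the 3 lines, where 3.67% of all genes tested did, and both were higher (2.53% of all genes were higher and 1.13% lower). In SCC6 it was 2 of 10, both higher, against 3.81% of all genes (2.51% higher and 1.3% lower). In SCC1 and SCC25 it was 0 of 10, against 0.0168% and 0.0% of all genes. An unadjusted edgeR p under 0.05 was found there for 3 and 2 of the 10 members, and for 1570 and 1041 of the 17897 genes tested. DESeq2 called TGFB2 in each of these lines (1.51% and 0.564% of all genes). With the replicate block the counts were 4 of 10 across lines (11.6% of all genes), 6 of 10 in SCC6 (20.1%), 2 of 10 in SCC1 (4.45%) and 2 of 10 in SCC25 (0.978%). All of these were higher with cetuximab but TGFBI in SCC1. Over all genes the blocked fit called 6.03% higher and 5.55% lower across lines, 9.94% and 10.1% in SCC6, 2.46% and 1.99% in SCC1, and 0.771% and 0.207% in SCC25. The interaction called 0 of 10 without the block (0.0% of all genes) and 1 of 10 with it (1.29%). Without the block 1 of 10 members had an unadjusted edgeR p under 0.05 for the interaction, as had 1318 of the 17897 genes. The median log2 change of the 10 genes was 0.40 across lines, where the median over all genes was 0.01, and 0.72 in SCC6, 0.26 in SCC1 and 0.28 in SCC25 against medians of 0.00, 0.00 and -0.01. Treated and untreated replicates did not overlap for 4 of 10 genes in SCC1, 6 of 10 in SCC6 and 4 of 10 in SCC25, where 42.7%, 46.9% and 29.7% of all genes did not, so these counts lie near the background. The genes above in both treated samples were 4 of 10 in SCC1 (22.3% of all genes, with 20.4% below), 6 of 10 in SCC6 (25.5%, with 21.4% below) and 3 of 10 in SCC25 (14.4%, with 15.3% below), where TGFB1 was the 1 gene below. Between untreated lines, 4 of 10 passed for SCC6 against SCC1 (40.2% of all genes), 5 of 10 for SCC25 against SCC1 (40.8%) and 3 of 10 for SCC25 against SCC6 (40.9%), which are again shares close to those of all genes. The counts against SCC1 include TGFB3 and LTBP1, whose direction there followed from the filter on low counts. The others that passed were SMAD3 and TGFBR1 in SCC6 and SMAD3, TGFBR1 and TGFB2 in SCC25, each higher than in SCC1. Of all genes 21.5% were higher and 18.6% lower in SCC6, and 23.4% higher and 17.3% lower in SCC25. For SCC25 against SCC6, TGFB2 was higher (22.2% of all genes) and LTBP1 and SMAD7 were lower (18.7%). The difference of the cetuximab change between SCC25 and the other lines called 0 members with the block (0.0224% of all genes against SCC1 and 0.609% against SCC6). Without the block it called 0 members and 0.0% of all genes.

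The wider pathway was read from 46 further genes, all of them tested. This list was chosen with earlier results of these data known. Its shares, here and within lines, are therefore a description and no measure of enrichment. Across the 3 lines 14 rose and 0 fell, 30.4% of the list against 3.67% of all genes, and the median log2 change of the list was 0.40. By role, 7 of 15 targets, 4 of 12 ligand-side and extracellular control genes, 2 of 11 SMADs, cofactors and inhibitors, and 1 of 8 receptors rose. TAGLN, which encodes an actin-binding protein of contractile cells, had the largest change, a rise of 2.30 ± 0.22 (edgeR FDR 0.000903). CDKN2B, a cell cycle inhibitor that TGF-beta induces in keratinocytes, had 1.76 ± 0.35 across lines, but it was at 0 to 1 UMI in SCC6, so this value comes from SCC1 and SCC25. ITGB6, a subunit of the integrin that activates latent TGF-beta, rose by 1.65 ± 0.29 (edgeR FDR 0.0148), and THBS1, another activator, by 1.46 ± 0.30 (edgeR FDR 0.0254). Among inhibitors PMEPA1, which sequesters receptor SMADs, rose by 1.44 ± 0.26 and FSTL3, which binds activin, by 1.34 ± 0.23. The basement membrane collagen gene COL4A1 rose by 1.73 ± 0.38 (edgeR FDR 0.0312).

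Within SCC6, 7 of the 46 rose and 1 fell, 17.4% of the list against 3.81% of all genes. COL1A1 had 1.03 and 2.75 CPM with PBS and 22.6 and 18.8 CPM with cetuximab, a change of 3.45 ± 0.41 (edgeR FDR 0.00631). COL4A1 had 14.9 and 14.7 CPM against 136 and 101 CPM, a change of 3.00 ± 0.52 (edgeR FDR 0.0163). TAGLN had 197 and 198 CPM against 947 and 1365 CPM. These matrix and contractile genes were far apart between groups, with no overlap, where 46.9% of all genes did not overlap in SCC6 either. BMPR2, SKIL and LTBP2 were among the others that rose there, by 1.70 ± 0.36, 1.52 ± 0.32 and 1.38 ± 0.30. TGFBR3, the co-receptor that presents TGFB2 to TGFBR2, was the 1 gene that fell, by 2.25 ± 0.48 (edgeR FDR 0.0319), from 2.16 and 1.56 CPM to 0.438 and 0.343 CPM. In SCC1 and SCC25 0 of 46 passed without the block (0.0168% and 0.0% of all genes). There 12 and 13 of the 46 had an unadjusted edgeR p under 0.05, as had 1570 and 1041 of the 17897 genes tested. With the block 14 rose and 0 fell in SCC1 (4.45% of all genes called), 22 rose and 4 fell in SCC6 (20.1%), and 9 rose and 1 fell in SCC25 (0.978%).

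**Figure D3:**
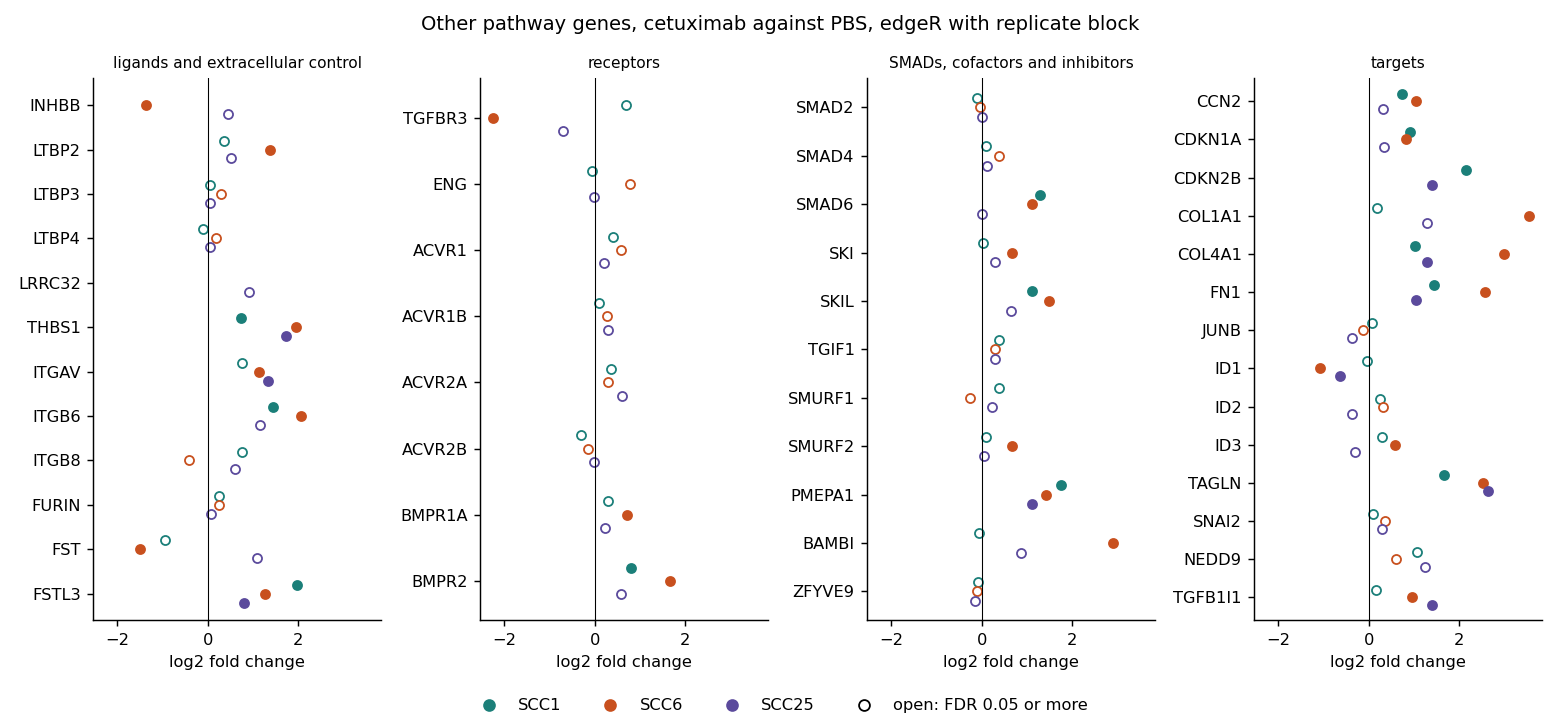
Cetuximab change of the further pathway genes that are reported singly, in SCC1 (green), SCC6 (orange) and SCC25 (purple), as log2 fold change from the fit with the replicate block, filled where the FDR is under 0.05. A gene with 3 UMIs or fewer in every sample of a line is left out of that line. TAGLN, THBS1, PMEPA1, FSTL3, COL4A1 and FN1 are filled in all 3 lines.

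With the block, the genes that passed in all 3 lines included TAGLN, with changes of 1.66 ± 0.19 in SCC1, 2.53 ± 0.20 in SCC6 and 2.63 ± 0.20 in SCC25, and FSTL3, with 1.98 ± 0.13, 1.27 ± 0.13 and 0.81 ± 0.13. The largest in SCC1 was CDKN2B at 2.15 ± 0.17 (edgeR FDR 0.00273). ID1, a gene that bone morphogenetic proteins induce and TGF-beta can repress, fell by 1.07 ± 0.11 in SCC6 and by 0.62 ± 0.11 in SCC25 (edgeR FDR 0.000992 and 0.0415). Its SCC25 groups overlapped, and the SCC1 pairs changed by -0.09 and 0.03 on the log2 scale. ID2 and ID3, on the same list, were higher in both treated SCC6 samples (0.13 and 0.50, then 0.18 and 1.00 within pairs). In SCC25 both were lower within pairs, with overlapping groups. The interaction with the block called 6 of the 46 (COL1A1, COL4A1, FN1, FST, FSTL3 and ID1), against 1.29% of all genes. BAMBI, a decoy receptor, was not among these 6. It had 10.0 and 37.9 CPM untreated and 166 and 131 CPM treated in SCC6, and at most 0.0978 CPM in SCC1. In SCC25 both treated BAMBI samples lay above both untreated ones, with log2 changes of 0.99 and 0.74 within pairs. These values are a description.

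In single cells, each cell was thinned to 15000 UMIs so that samples of unlike depth could be compared, which kept 23063 cells and left out 851 shallower ones, and shares of cells with a UMI are given as descriptions with exact 95% binomial intervals that cover counting error only. TGFB2 was found in 5.35% (4.15 to 6.77) and 2.13% (1.49 to 2.96) of untreated and in 25.6% (22.8 to 28.5) and 18.7% (16.7 to 20.9) of treated SCC1 cells. In SCC6 it was found in 5.13% and 5.01% against 22.0% and 27.8%, and in SCC25 in 22.4% and 13.8% against 51.9% and 46.9%. Without thinning the TGFB2 shares were 12.6% and 6.12% against 45.5% and 38.4% in SCC1. They were 9.41% and 10.1% against 32.1% and 56.6% in SCC6, and 38.1% and 30.5% against 74.1% and 69.6% in SCC25. The level of these shares thus moved with depth, while both treated samples of each line stayed above both untreated ones. Genes that these lines should not express (ALB, HBB, PTPRC and CD3E) had a UMI in no more than 0.137% of cells in each sample, far below the TGFB2 shares. SMAD7 was found in 5.51% and 7.22% of untreated and 20.4% and 23.1% of treated SCC6 cells, against 3.84% to 9.59% in all samples of the other lines. Without thinning the SCC6 shares of SMAD7 were 12.6% and 17.8% against 30.4% and 56.4%, and those of the other lines ran from 10.0% to 27.5%. LTBP1 in SCC1 was found in at most 0.165% of cells, where those background genes averaged 0% in both SCC1 groups. Its lowest value was 0 of 1640 cells in untreated replicate 2, which by a floor of 3 counts allows up to 0.183% of cells with a UMI at this thinned depth and sets no limit on expression. Without thinning 0.300% of the cells of that sample had an LTBP1 UMI. The mean LTBP1 shares without thinning were 0.348% in untreated and 0.426% in treated SCC1, against at most 0.0362% for the background genes in SCC1.

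**Figure D4:**
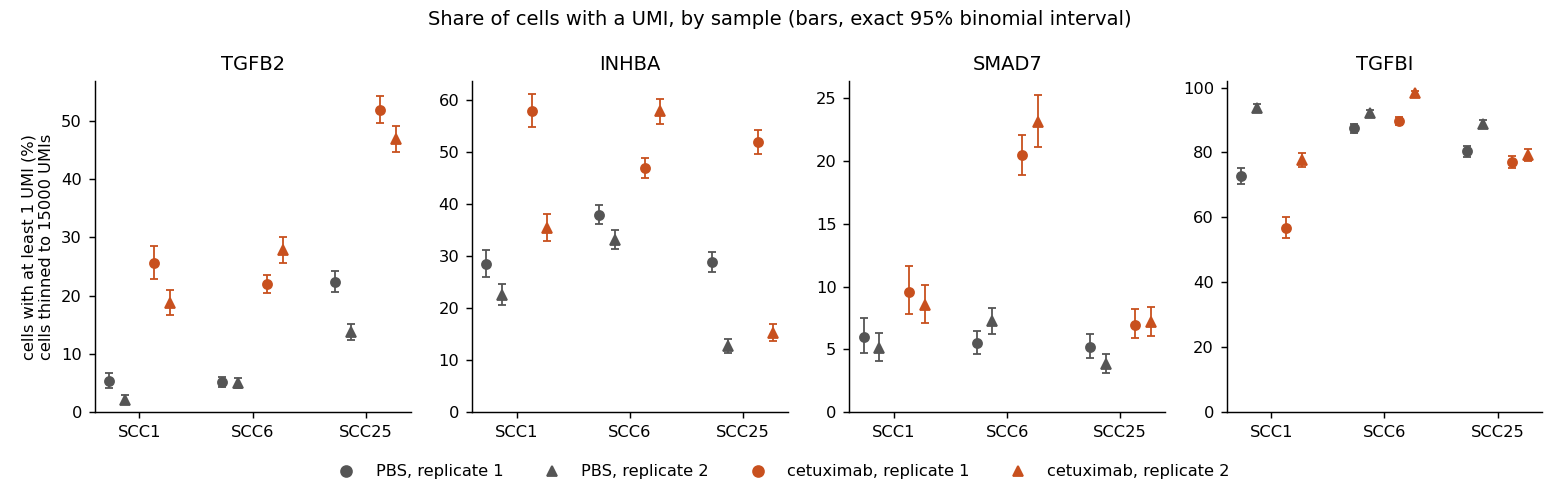
Share of cells with at least 1 UMI of TGFB2, INHBA, SMAD7 and TGFBI in each sample after thinning to 15000 UMIs, with exact 95% binomial intervals for counting error, PBS in grey and cetuximab in orange. The TGFB2 share is higher in both treated samples of every line, whereas TGFBI is found in over 56% of cells in all 12 samples.

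INHBA and TGFBI were spread unevenly over the cells. In SCC1 cetuximab replicate 1, INHBA was found in 58.0% of cells, whereas the same UMIs spread evenly would reach 93.2%. Its Fano factor (variance over mean of the UMIs per cell, near 1 for even spread) ran from 1.95 to 6.77 over the samples and reached 47 UMIs in 1 cell of SCC6 cetuximab replicate 2. TGFBI had Fano factors of 2.72 to 7.85 and TGFB2 of 1.07 to 2.52. The other 7 genes stayed between 0.969 and 1.32, where the sparsest of them (TGFB3 had 1 to 34 UMIs a sample after thinning) would be near 1 whatever their spread. Over the cells of a sample, Pearson's r between TGFB2 and INHBA had a median of 0.170 over the 12 samples, from -0.0162 to 0.399. In SCC1 it was 0.151 and 0.292 untreated and 0.399 and 0.337 treated, in SCC6 0.165 and 0.175 against 0.275 and 0.335, and in SCC25 at most 0.0924. The SCC25 values were the lowest of the 3 lines. INHBA and TGFBI had a median r of 0.141, from 0.0368 to 0.342, and the median of each of the other 43 pairs lay between -0.0248 and 0.0565. The cells of a sample share a library and, after thinning, a depth, and weak values in sparse counts are no finding.

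Untreated SCC6 and SCC25 held cells with and without a UMI of VIM, the mesenchymal filament gene used as an EMT marker, and the levels of the 10 genes were set side by side in these cells. VIM was found in 18.2% and 34.2% of untreated SCC6 cells and 79.4% and 54.4% of untreated SCC25 cells. TGFBI was higher in cells with VIM in all 4 samples, by 1.39 and 1.63 times in SCC6 and 1.61 and 1.55 times in SCC25. INHBA was higher by 1.42 and 1.61 times in SCC6 and 1.48 and 1.32 times in SCC25. TGFB2 was also higher in all 4, from 1.32 to 2.89 times, on 36 to 550 UMIs in the cells with VIM. SMAD3 ran the other way in SCC25, at 0.856 and 0.753 times, with SCC6 at 0.897 and 1.06 times. These are ratios within samples, with no test, since cells of 1 sample are not replicates.

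**Figure D5:**
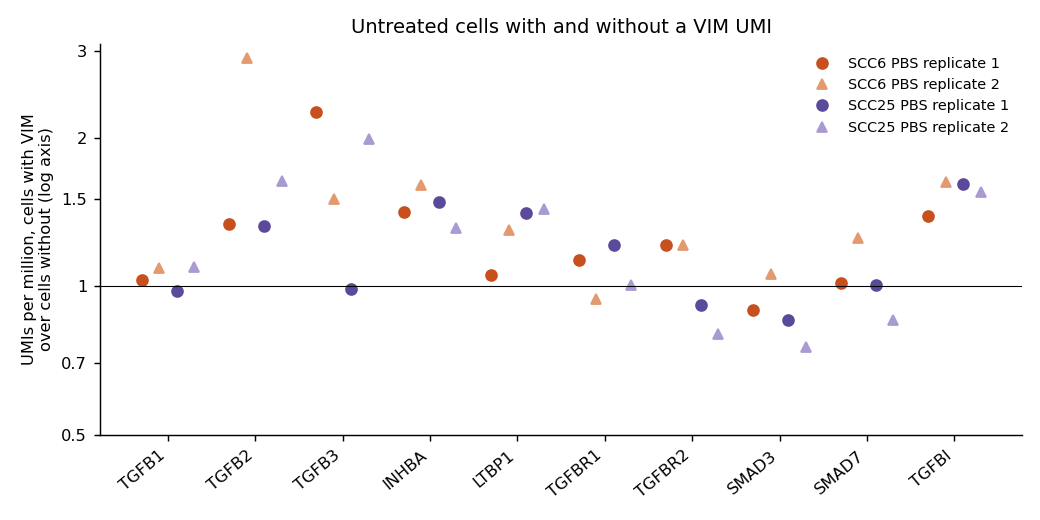
Ratio of UMI levels in untreated cells with a VIM UMI over cells without, for each gene and each untreated sample of SCC6 (orange) and SCC25 (purple), on a log axis, after thinning to 15000 UMIs. INHBA, TGFB2, TGFBI and LTBP1 lie above 1 in all 4 samples.

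The genes whose levels were most like those of each member over the 12 samples, by Pearson's r of log2 CPM among genes averaging at least 10 CPM, are given as a description, since the 12 points come from 3 lines and hold the line differences. For TGFB2 they were PAM (0.943), MYL9 (0.930) and HIST1H2BD (0.922). For INHBA they included PIEZO1 (0.931) and MICAL2 (0.912). TGFBI went most closely with STMN1, ALDH7A1 and FAM92A, at 0.903, 0.893 and 0.892, and SMAD7 with TTPAL and ATP13A2, at 0.963 and 0.953. For LTBP1, TGFBR1 and SMAD3, which chiefly separated the lines, r reached 0.996 with FIBCD1, 0.986 with PCNX4 and 0.984 with SVIL. TGFBR2 reached 0.952 with WWC2, TGFB3 0.976 with CD24 and TGFB1 0.879 with CCDC14.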

How the data were processed

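Droplet scRNA-seq had been done on 12 samples (3 lines, cetuximab or PBS, 2 replicates). The deposited tables hold raw UMI counts per gene and cell, 1 table per line, which the authors made with Cell Ranger (build GRCh38 by the submitters' processing notes, version not given in the sources used here) and handled in Monocle. No per-sample column was left unused. Groups and replicate numbers came from the sample labels.

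Counts were summed per sample (Python 3.11.15, numpy 2.4.6, pandas 2.3.3, scipy 1.17.1) and fitted in R 4.3.3 with edgeR 4.0.16 (filterByExpr, TMM factors, quasi-likelihood F-test). The fit of 1 mean per group had 6 residual degrees of freedom. The comparison across lines came from a separate fit of line plus treatment, to which that number does not apply. CPM are over TMM-scaled library sizes. The scripts were tested on simulated data. Samples of a line with the same replicate number deviated together from their group means (Pearson's r of 0.698 in SCC1, 0.658 in SCC6 and 0.745 in SCC25 over 7133 genes with a mean of at least 10 CPM), so the numbers were taken to pair the samples. The fit of group means with the replicate block has 3 residual degrees of freedom.

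The 10 genes and all gene lists were chosen with earlier results of these data known. Genes named are all members, the pathway genes that passed (at most 8 per comparison by size of the log2 change), and the 3 genes most correlated with each member. Some genes that this rule names are not reported here, although the counts include them. ID1 was singled out after its values were seen, and ID2 and ID3 are named beside it for that reason. The alternatives were DESeq2 1.42.0, its size factors, no filter, 2 filters on cells, each sample left out, 1 line alone and the replicate block. No doublet caller was run and the sources used here do not say how doublets were treated, so the filter that leaves out the 5% of cells with most UMIs is the 1 alternative that bears on them. Promoters came from a RefSeq table (GRCh38.p14), in which all 10 members matched. How reads shared by similar or antisense genes were counted is not given in the sources used here.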

Additional observations from a re-analysis of the deposited data

Results flagged for a closer look

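A test of the difference in cetuximab change between lines passed for members in the fit with the replicate block only. The interaction over the 3 lines passed for TGFBI, a call made for 1.29% of all genes. The difference of SCC6 from SCC1 passed for 2 genes, TGFBI and SMAD7, a call made for 1.67% of all genes. For TGFBI the interaction over the 3 lines had an edgeR FDR of 0.0383, and the SCC6 change exceeded that of SCC1 by 1.74 ± 0.26 on the log2 scale (edgeR FDR 0.0207). Both SCC1 pairs fell and both SCC6 pairs rose, while without the block the same difference was 1.91 ± 0.81 (edgeR FDR 0.565) and the interaction FDR over all alternatives ran from 0.0383 to 1.00. For SMAD7 the SCC6 change exceeded that of SCC1 by 1.13 ± 0.21 (edgeR FDR 0.0411) with the block, and without it by 1.13 ± 0.32 (edgeR FDR 0.336). The SMAD7 interaction over the 3 lines missed the threshold with the block (edgeR FDR 0.0593). The SMAD7 change in SCC25 minus that in SCC6 was -1.04 ± 0.21 with the block and missed the threshold (edgeR FDR 0.0676).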

How the results depend on the processing

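With the replicate block, the paired fit, the members called rose from 0 to 2 in SCC1 and SCC25, from 2 to 6 in SCC6, from 2 to 4 across the 3 lines and from 0 to 1 for the interaction. The share of all genes called rose too, from 0.0168% to 4.45% in SCC1 and from 0.0% to 0.978% in SCC25. It rose from 3.81% to 20.1% in SCC6, from 3.67% to 11.6% across lines and from 0.0% to 1.29% for the interaction. The block lies within a line, so it gives no value for comparisons between untreated lines. DESeq2 called 1 member in SCC1 and 1 in SCC25, as did the fit with no filter, each time TGFB2. Of all genes DESeq2 called 1.51% in SCC1 and 0.564% in SCC25, and the fit with no filter 0.938% and 0.494%. Leaving out each sample gave 0 to 2 members in SCC6, 1 to 3 across lines and 1 to 3 for SCC25 against SCC6 untreated, where SCC25 PBS replicate 2 gave the 1. TGFB2 across lines passed in all 18 alternatives (FDR 7.03e-21 to 0.00526). No call of a member turned its direction, and other member counts stayed within 1.5 times. Of the members' single changes under an alternative, 1191 kept their side of the threshold and their direction, 18 gained a call and 18 lost one. The other 32 turned their direction and were called in neither fit. Without thinning 116 shares of cells moved beyond their counting interval and 4 did not, and at 10000 UMIs 105 moved and 15 did not.

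Over all genes, SCC6 without PBS replicate 1 called 11 and without cetuximab replicate 1 called 61, where 682 were called with all samples, and SCC6 alone called 265. The counts for SCC1, SCC6, SCC25, across lines and the interaction were 3, 682, 0, 656 and 0. They were 243, 1233, 128, 1043 and 248 with no filter, 271, 1660, 101, 1771 and 287 by DESeq2, and 797, 3589, 175, 2073 and 230 with the block. Left-out samples gave 0 to 6, 11 to 749, 0 to 1, 202 to 596 and 0 to 14. The cause was not tested. The block moved the split across lines from 453 higher and 203 lower to 1079 and 994, and in SCC6 from 449 and 233 to 1779 and 1810. With 2 samples per group, and 4 to 16 UMIs a sample for TGFB3 and LTBP1 in SCC1, the changes there are imprecise.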
